A study of Mus musculus with 30 samples.

Results

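The genes described are the nuclear-encoded subunits of the 5 oxidative phosphorylation complexes, as the array measured them in mouse kidney and skeletal muscle. They were taken by symbol: every gene whose symbol starts with Nduf, Uqcr, Cox4 to Cox8 or Atp5, or is Sdha, Sdhb, Sdhc or Sdhd, among probe sets annotated to 1 symbol. Of 17782 genes on the array 90 met this rule, each read from its brightest probe set in a tissue. By complex, 34 are subunits of complex I, 4 of complex II, 8 of complex III, 19 belong with complex IV and 17 with complex V, and 8 are Ndufaf factors, which assemble complex I and are not part of the finished enzyme. The mice were 6 weeks old and were either wild type (WT) or Kif3aΔTub, in which the KSPCre transgene named in the labels deletes the cilium motor gene Kif3a in kidney tubule cells, so that muscle fibres keep the gene. Each genotype received phosphate-buffered saline (PBS) or sActRIIB-Fc, a soluble form of the activin type IIB receptor that traps its ligands, given intraperitoneally at 10 mg/kg in 2 weekly injections. Kidney and muscle came from the same 15 animals, with 3 untreated WT mice and 4 mice in each of the other groups, and the labels name neither the muscle nor the sex. Below, "mutant" means Kif3aΔTub, "untreated" means PBS, and "the trap" means sActRIIB-Fc.

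Oxidative phosphorylation is the last stage of aerobic energy metabolism. Complexes I and II take electrons from NADH and succinate, complex III passes them to cytochrome c, complex IV hands them to oxygen, and complex V, the ATP synthase, uses the resulting proton gradient to make ATP. Kidney tubules, which reabsorb salt and solutes, and oxidative muscle fibres are both rich in mitochondria, and several complex IV subunits exist as a heart and muscle form and a form found in most other tissues. The mitochondrially encoded subunits fall outside the rule.

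All values are log2 signals, so a difference of 1 is a 2-fold change, and "called" means an adjusted p below 0.05 in a limma fit over all 17782 genes. The precision is set by the number of arrays. Where members with an unadjusted p below 0.05 are counted, no share of all genes at that cutoff is given. Such a count is therefore not a result about the members as a set. Of the 90 members, 88 were brighter in both tissues than a dim reference level of 5.02 in muscle and 4.82 in kidney, the median signal of genes of the other tissue. The 2 at or under it were Ndufb4 and Cox7b2. In muscle 62 members lay above a signal of 12, as did 1.66% of all genes, and the highest signal in that table was 14.45. In kidney 34 members lay above 12, as did 1.29% of all genes, and the highest signal was 14.46. Markers of muscle fibres averaged 13.14 to 13.33 over the muscle arrays and 4.55 to 4.95 over the kidney arrays. Kif3a in kidney was 7.76 to 7.89 in untreated WT and 7.22 to 7.48 in untreated mutants, which did not overlap, but 7.34 to 7.84 in treated WT and 7.37 to 8.0 in treated mutants, which did. The targeted gene therefore separated the genotypes in whole kidney without the trap, not with it.

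In untreated WT mice the 2 tissues differed most in the tissue forms of complex IV. Of the 90 members 57 were lower in kidney than in muscle and 8 higher, against 36.1% and 28.5% of all genes, with a median difference of -0.36 and of -0.13 over all genes. With each array centred on its median the split was 71 lower and 4 higher. Complex I had 29 of 34 members lower in kidney and 1 higher (median -0.51), complex III 7 of 8 lower, complex V 10 of 17 lower and 2 higher, complex IV 7 of 19 lower and 4 higher, the assembly factors 3 of 8 lower and 1 higher, and complex II 1 of 4 lower. The 1 higher member of complex I was Ndufb4, at 4.72 in kidney and 4.16 in muscle, under the dim reference in both tissues.

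Cox6a2, the heart and muscle form of subunit 6a, measured 13.05, 13.24 and 13.14 on the muscle arrays and 6.41, 7.12 and 7.07 on the kidney arrays. No kidney array came near a muscle array, and the difference was -6.28 (SE 0.16, adjusted p 3.38e-23), a 77.7-fold lower signal in kidney. Its partner Cox6a1, the form found in most tissues, was 5.57-fold higher in kidney, at 14.16 ± 0.01 (SD, n = 3) against 11.68 ± 0.25. The pair therefore ran in opposite directions between the tissues.

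Cox8b, the muscle form of subunit 8, averaged 13.25 ± 0.21 (SD, n = 3) in muscle and 6.88 ± 1.80 in kidney, a difference of -6.37 (SE 0.84, adjusted p 1.79e-07). The 3 kidney arrays were far apart, at 8.68, 5.09 and 6.87. Cox8a, the widespread form, went the other way, 12.83 ± 0.05 in kidney and 10.11 ± 0.30 in muscle, which is 6.61-fold higher in kidney (SE of the log2 difference 0.14, adjusted p 1.31e-15). Cox7a1, the muscle form of subunit 7a, was 14.9-fold lower in kidney, at 8.67 ± 0.16 against 12.57 ± 0.21, while Cox7a2 differed by 0.08 and was not called. Cox4i1, the main form of subunit 4, and Ndufa4, a small subunit first assigned to complex I, differed by 0.03 and -0.10, neither called. Their alternative forms Cox4i2 and Ndufa4l2 differed by -0.65 and -0.95.

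Outside these pairs, Ndufaf5, which modifies a complex I subunit during assembly, was 3.06-fold lower in kidney, and Atp5g1, one of 3 genes for the c ring of the ATP synthase, 2.30-fold lower. Atp5b, the catalytic subunit, was higher in kidney by 0.20 (SE 0.08, adjusted p 0.0223) and Atp5g3 by 0.17 (SE 0.07, adjusted p 0.0302). Under median centring the Atp5g3 difference turned to -0.030. Cox6b2 and Cox7c, both small subunits of complex IV, were higher in kidney by 1.45 and 1.08. Both signals were low for members. Cox6b2 was at 6.90 in kidney and 5.45 in muscle, and Cox7c at 6.99 and 5.91, each from a single probe set.

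**Figure D1:**
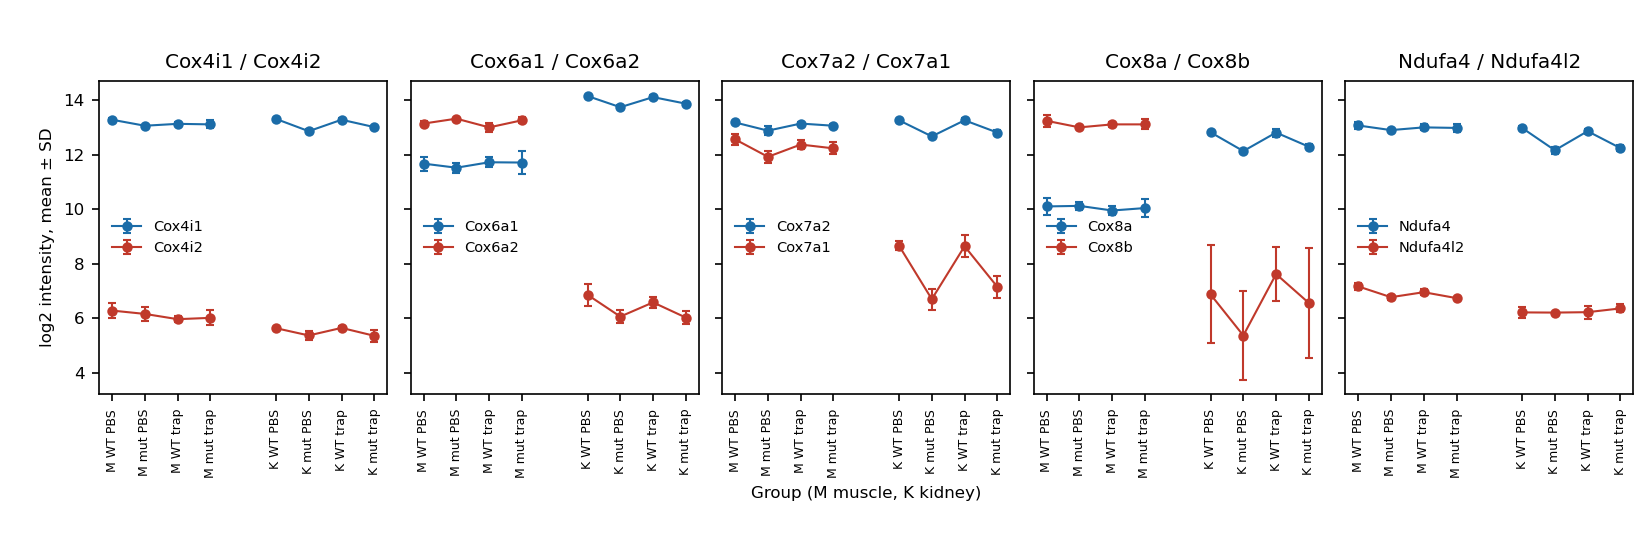
Log2 signal (vertical axis) of the 5 pairs of alternative forms in the 8 groups (horizontal axis), as mean ± SD of 3 untreated WT arrays or 4 arrays in each other group, with lines joining the groups of a tissue. Cox6a2, Cox8b and Cox7a1 sit high in muscle and low in kidney, Cox6a1 and Cox8a the reverse, and signals of different genes are not to be compared with each other.

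The promoters of 4 of these genes are shown because they belong to a pair with opposite tissue direction or to the muscle forms, and because a RefSeq window (build GRCm38.p6) was at hand. Each run is the 250 bases before the gene's start, 5′ to 3′ on the gene's strand, with capitals for the motif letters a search found on either strand. The coordinates are chr5:115348959-115349208 on the minus strand for Cox6a1, chr19:7217617-7217866 on the minus strand for Cox8a, chr7:30183921-30184170 on the plus strand for Cox7a1 and chr7:140900447-140900696 on the minus strand for Cox8b.
Cox6a1: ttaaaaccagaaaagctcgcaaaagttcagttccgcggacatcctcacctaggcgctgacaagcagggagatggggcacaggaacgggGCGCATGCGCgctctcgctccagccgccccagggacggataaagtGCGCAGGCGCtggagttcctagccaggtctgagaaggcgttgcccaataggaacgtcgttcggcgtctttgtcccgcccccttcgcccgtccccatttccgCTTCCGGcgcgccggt
Cox8a: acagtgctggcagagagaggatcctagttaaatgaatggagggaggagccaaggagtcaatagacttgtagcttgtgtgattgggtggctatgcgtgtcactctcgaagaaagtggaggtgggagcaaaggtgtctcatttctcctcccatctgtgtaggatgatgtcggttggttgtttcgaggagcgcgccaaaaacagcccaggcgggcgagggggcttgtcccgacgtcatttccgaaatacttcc
Cox7a1: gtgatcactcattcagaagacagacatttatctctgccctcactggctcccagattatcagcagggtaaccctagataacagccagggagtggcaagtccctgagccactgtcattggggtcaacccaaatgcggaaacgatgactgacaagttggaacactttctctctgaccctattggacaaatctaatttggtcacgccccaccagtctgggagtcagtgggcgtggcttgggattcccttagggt
Cox8b: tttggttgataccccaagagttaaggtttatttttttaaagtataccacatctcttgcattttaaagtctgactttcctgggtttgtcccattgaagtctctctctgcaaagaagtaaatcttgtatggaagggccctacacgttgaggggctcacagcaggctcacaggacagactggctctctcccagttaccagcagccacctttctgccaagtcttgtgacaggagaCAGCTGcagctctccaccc
The Cox6a1 window holds 2 matches to the motif of nuclear respiratory factor 1 (NRF1), searched as GCGCA, any base, then GCGC, starting 162 and 117 bases before the start, and 1 match to the ETS motif CCGGAAG on the reverse strand 16 bases before it. Cox8b has the E-box CAGCTG, a motif read by muscle transcription factors, 19 bases before its start, and the other 2 windows hold none of the searched letters. No match overlapped another in these windows.

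The table held windows for 74 of the 90 members, 79 windows in all. The NRF1 letters occurred in 13 of them (16.5%), against 3.74% of all 32851 windows and 5.18% of those of coding genes. CCGGAAG occurred in 14 (17.7%, against 6.91% and 8.98%), and 3 windows held both. The estrogen-related receptor motif TCAAGGTCA was found in 1 window (1.27%, against 0.387% of all windows), and CAGCTG in 6 (7.59%, against 13% of all). These are counts of letters, not of bound sites.

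Untreated mutant kidneys had lower signals across all 5 complexes. Of the 90 members 82 were lower than in WT, 1 was higher and 7 were not called, and for 85 every mutant array was below every WT array. Over all genes 26.7% were lower, 24.9% higher and 32.0% lower without overlap of arrays. The median member difference was -0.67, against -0.08 over all genes, and -0.83 with each array centred on its median. By array, the median member stood 0.77, 0.53, 0.71 and 0.69 below the untreated WT mean in the 4 mutants, and within 0.03 of it in the 3 WT kidneys. These are bulk tissues, in which fewer cells of a type and less RNA per cell cannot be told apart.

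**Figure D2:**
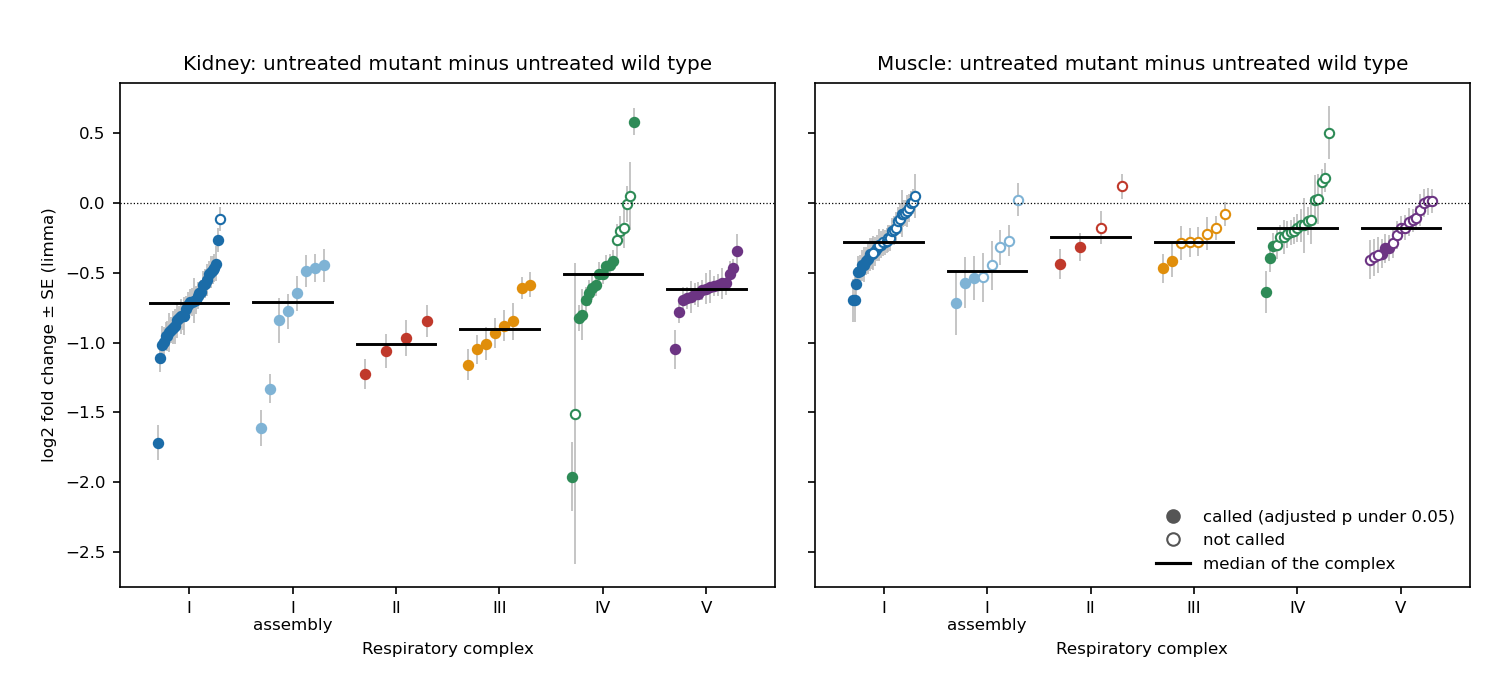
Log2 difference between untreated mutants and untreated WT (vertical axis, ± SE from limma) for each of the 90 members, by complex (horizontal axis), in kidney and in muscle; filled points were called, and the bar is the median of a complex. In kidney the medians lie between -0.50 (complex IV) and -1.01 (complex II), and in muscle between -0.18 (complexes IV and V) and -0.49 (complex I assembly).

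In complex I 33 of 34 subunits were lower in the mutant kidney, with a median of -0.85 over the 6 core subunits, which carry the electron path, and -0.70 over the 28 accessory ones. The 33 include Ndufb4, which lay under the dim reference. Ndufs1, the largest core subunit and holder of several iron-sulfur clusters, measured 11.74, 11.60 and 11.68 in WT and 9.73, 10.23, 9.82 and 10.04 in mutants. It was the lowest of the complex, with a gap of more than 1 between the groups and a difference of -1.72 (SE 0.13, adjusted p 5.02e-08), a 3.28-fold lower signal. Ndufa9, an accessory subunit near the quinone site, was 11.94, 11.87 and 11.90 in WT and 10.60, 11.06, 10.73 and 10.80 in mutants, a 2.16-fold fall (SE of the log2 difference 0.10, adjusted p 2.27e-07). Ndufv1, the core subunit that binds NADH, fell by 0.81 (SE 0.10), and Ndufs4, an accessory subunit needed for a stable complex, fell by 0.84. The 1 subunit not called was Ndufa2, a small accessory subunit, at 12.16, 12.12 and 12.15 in WT and 12.06, 12.06, 11.98 and 12 in mutants. Its arrays did not overlap, but the difference was -0.11 (SE 0.08, adjusted p 0.269).

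All 8 assembly factors of complex I were lower (median -0.71). Ndufaf6, which acts early in assembly, was 9.15, 9.25 and 9.13 in WT kidneys and 7.32, 7.94, 7.55 and 7.45 in mutants. That is a 3.06-fold fall (SE of the log2 difference 0.13, adjusted p 9.34e-08). Ndufaf1, a chaperone of the membrane arm, was 9.27, 9.14 and 9.23 against 7.81, 8.0, 7.83 and 7.89. Its groups were also well apart, with a 2.52-fold fall (adjusted p 7.32e-08).

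Complex II, succinate dehydrogenase, had the lowest median of the complexes, -1.01, and all 4 subunits were lower. Sdhb, its iron-sulfur subunit, measured 12.68, 12.54 and 12.60 in WT and 11.14, 11.60, 11.37 and 11.39 in mutants. The fall was 2.34-fold (SE of the log2 difference 0.11, adjusted p 2.51e-07), and the mutant closest to WT, replicate 2, was still well below the lowest WT array. Sdha, the subunit that oxidises succinate, was 12.30, 12.20 and 12.28 against 10.94, 11.49, 11.10 and 11.27, a 2.08-fold fall. Sdhc and Sdhd, the membrane anchors, fell by 0.97 and 0.85.

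All 8 members of complex III were lower (median -0.90). Uqcrc2, a core protein of the complex, was 12.52, 12.37 and 12.40 in WT and 11.12, 11.55, 11.07 and 11.35 in mutants, a 2.23-fold fall (SE of the log2 difference 0.11, adjusted p 5.73e-07). Uqcrfs1, the Rieske iron-sulfur protein, was 12.73, 12.64 and 12.62 against 11.52, 11.87, 11.51 and 11.55, a 2.07-fold fall. Both sets of arrays were clearly apart. Uqcrc1, the partner of Uqcrc2, fell by 0.93. Uqcr10, a small subunit, fell by 0.88 by its brightest probe set, and its dimmest one gave -2.57.

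Complex IV was the least uniform: 12 of its 19 members were lower, 1 was higher and 6 were not called (median -0.50). Cox7a1 had the largest fall of all 90 members, from 8.83, 8.51 and 8.67 in WT to 6.36, 7.25, 6.56 and 6.66 in mutants. It fell 3.89-fold (log2 difference -1.96, SE 0.25, adjusted p 8.66e-06), and its counterpart Cox7a2 fell by 0.59. Cox6a2 fell by 0.80 (SE 0.18, adjusted p 0.00183) and Cox6a1 by 0.41, Cox8a by 0.70 and Ndufa4 by 0.82. Cox5a and Cox5b, which are in no such pair, fell by 0.61 and 0.51, and Cox4i1 fell by 0.45.

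Among the 6 that were not called, Cox8b had a difference of -1.51 with an SE of 1.08 (adjusted p 0.253). Its mutant arrays read 5.33, 7.70, 4.27 and 4.21, and the groups overlapped. Cox4i2 had -0.27, Cox7b2 -0.20, Cox7c -0.18, Ndufa4l2 -0.01 and Cox6b2 0.05. All 6 had low signals for members, against a median member level of 11.7 over the kidney arrays. Their untreated WT kidney means were 3.31 (Cox7b2), 5.64 (Cox4i2), 6.22 (Ndufa4l2), 6.88 (Cox8b), 6.90 (Cox6b2) and 6.99 (Cox7c). The median of complex IV includes them. Cox6a2, at 6.87, was also low but was called. Cox7a2l, which joins complexes III and IV into supercomplexes, was the 1 member that was higher, at 10.46, 10.58 and 10.59 in WT and 11.08, 11.13, 11.19 and 11.12 in mutants. All 4 mutants were above all 3 WT kidneys, a 1.5-fold rise (log2 difference 0.58, SE 0.10, adjusted p 0.000116).

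All 17 members of complex V were lower (median -0.61), in the F1 head (5 of 5, median -0.60), the c ring (3 of 3, -0.47), the stalk (4 of 4, -0.67) and the membrane part (5 of 5, -0.61). Atp5g1 had the largest fall, from 11.80, 11.60 and 11.64 to 10.45, 10.95, 10.50 and 10.62, which is 2.07-fold (SE of the log2 difference 0.14, adjusted p 1.64e-05). The other c ring genes, Atp5g3 and Atp5g2, which encode the same mature protein, fell by 0.47 and 0.34. Atp5b was 13.74, 13.72 and 13.70 in WT and 12.82, 13.11, 12.92 and 12.92 in mutants, a 1.72-fold fall, and Atp5a1, the other large subunit of the head, fell by 0.59. No array of either gene overlapped.

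Other mitochondrial genes were lower in the same kidneys. All 16 measured enzymes of the tricarboxylic acid (TCA) cycle were lower (median -0.98), with Dld at -1.54 and citrate synthase (Cs) at -0.35. Of the cytochrome c and coenzyme Q genes 12 of 13 were lower, Coq8a by 2.08 and Cycs by 1.25 on the log2 scale, as were 24 of 31 assembly factors of complexes II to V and 15 of 19 import and folding genes. Of 23 regulators of mitochondrial genes 16 were lower and 4 higher: the nuclear receptor Esrra fell by 0.95, the mitochondrial DNA factor Tfam by 0.63 and the coactivator Ppargc1a by 0.41, while Pprc1 and Nrf1 rose by 0.89 and 0.45.

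Markers of other cell types moved in the same arrays. Of 21 proximal tubule markers 20 were lower, and their mean level was 12.40 to 12.42 in WT and 8.94 to 10.6 in mutants, while 10 of 13 markers of the loop and distal tubule were lower. All 20 macrophage markers were higher (mean level 6.19 to 6.5 in WT, 9.24 to 9.85 in mutants), as were 10 of 11 fibroblast markers (8.04 to 8.47 in WT, 10.1 to 10.58 in mutants) and 11 of 14 collecting duct markers. Of 10 endothelial markers 2 were higher, a share below the 24.9% of all genes. The mean level of 7 adipocyte markers varied widely between arrays, from 5.91 to 8.04 in WT and 5.34 to 8.27 in mutants. The part of all these cell markers in the differences of the 90 members was not tested. The actin 3′ minus 5′ signal, a sign of RNA integrity, was 1.4 to 1.5 in WT and 0.76 to 1.37 in mutants.

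The trap left the kidney members lower in mutants. Under the trap 82 members were lower in mutant than in WT kidney and 1 was higher, with a median of -0.55 (24.2% of all genes were lower). Among called members Cox7a1 (-1.49), Ndufaf6 (-1.10) and Ndufs1 (-1.05) fell most, and Cox7a2l was higher by 0.25 (adjusted p 0.0312) with arrays that overlapped. Treated mutants against untreated WT had 81 lower and 1 higher, Cox7a2l at 0.28 (median -0.56, with 25.3% of all genes lower). With arrays centred on their medians Cox7a2l was called in neither of these comparisons. That total of 82 was 42 with the 18S signal as a covariate, which was 12.97 to 13.06 in untreated WT kidneys and 12 to 12.7 in treated mutants.

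Between treated and untreated mutant kidneys no member was called in the limma test, as against 2.4% of all genes called. Of the members 18 had an unadjusted p below 0.05, a cutoff to which the 2.4% does not apply. The median difference was 0.13, and 84 of 90 differences were above 0, with no share of all genes above 0 to set beside it. The 18S signal was 12.86 to 13.43 in untreated mutant kidneys and 12 to 12.7 in treated ones, without overlap. Its part in these differences was not tested. In the same arrays 3 of 21 proximal tubule markers were higher with the trap (mean level 10.46 to 11.03 in treated mutants), and their part in these differences was not tested. Ndufs1 came nearest, with treated mutants at 10.55, 10.45, 10.22 and 10.43, a difference of 0.46 (SE 0.12, adjusted p 0.0567). The treated arrays overlapped the untreated ones only at the level of untreated replicate 2 and treated replicate 3. Ndufaf6 differed by 0.41 (SE 0.12, adjusted p 0.0885) and Cox7a2l by -0.30 (SE 0.09, adjusted p 0.0934). Ndufs1 was called without untreated mutant replicate 2 (4 members in all), without treated mutant replicate 3 (1 member) and without treated WT replicate 2 (2 members).

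In WT kidney no member was called for the trap (limma, 0.877% of all genes, 3 members with an unadjusted p below 0.05, median -0.02). The nearest was Ndufaf1 at -0.38 (adjusted p 0.112), which was called without treated WT replicate 1. The 18S signal did not overlap here either, at 12.97 to 13.06 in untreated and 12.43 to 12.8 in treated WT kidneys. The test of whether the trap acted differently in the 2 genotypes called none (limma, 1.38% of all genes, 15 with an unadjusted p below 0.05). The lowest p-values were those of Ndufs1 at 0.67 (adjusted p 0.0785) and Ndufaf1 at 0.50 (adjusted p 0.101), and 3 members were called without untreated mutant replicate 2 and 2 without treated WT replicate 1.

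**Figure D3:**
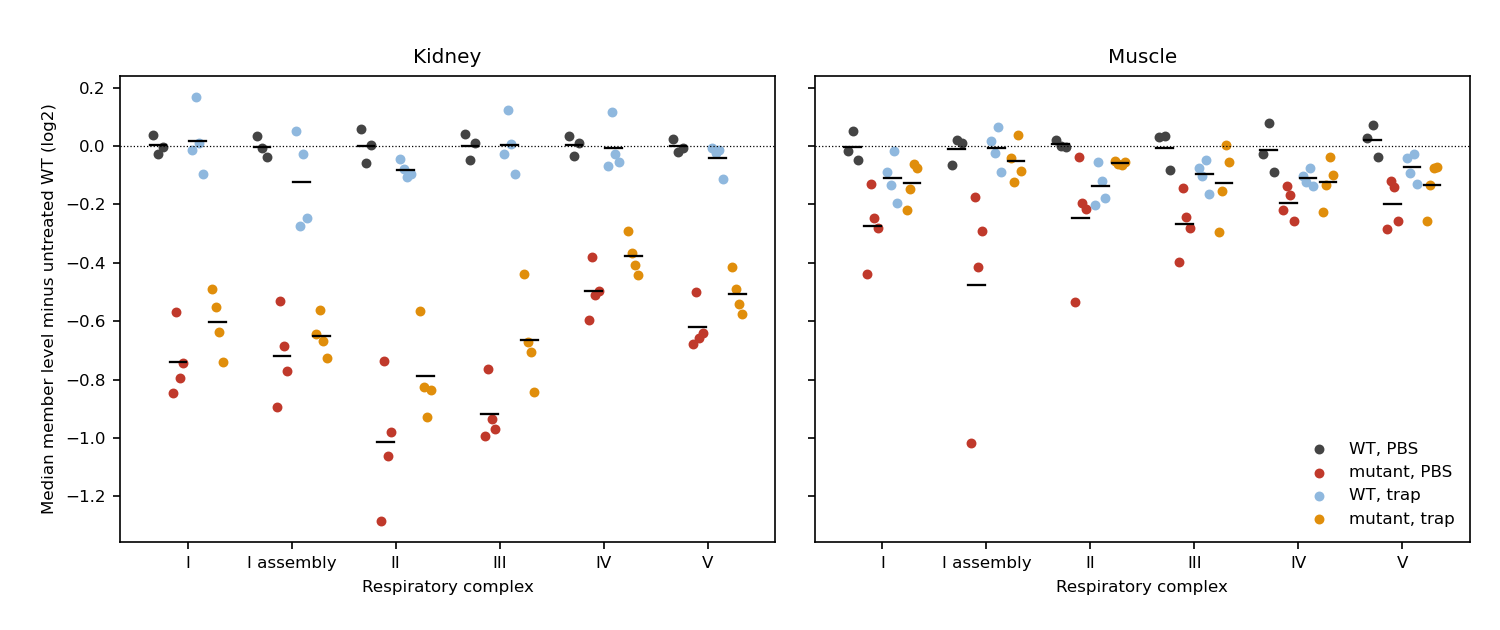
Median over the members of each complex (horizontal axis) of the log2 signal minus the untreated WT mean (vertical axis), with 1 point per array and the group mean as a bar, for kidney and muscle. In kidney the untreated mutants lie between -0.74 and -1.28 for complex II and the treated mutants between -0.57 and -0.93, and in muscle the untreated mutants reach -1.02 for complex I assembly.

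In muscle, where fibres keep Kif3a, 28 of the 90 members were lower in untreated mutants than in untreated WT, and the other 62 were not called. Over all genes 9.04% were lower. The median member difference was -0.25, against -0.05 over all genes, and no called member reached a 2-fold change. For 53 members all mutant arrays lay below all WT arrays, as for 13.5% of all genes. Of the members 51 had an unadjusted p below 0.05, with no share of all genes at that cutoff to set beside it. By array, the median member was 0.39, 0.13, 0.23 and 0.26 below the untreated WT mean, replicate 1 being the lowest.

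Complex I held 15 of the 28, among its 34 subunits (median -0.28). Ndufb2, a small accessory subunit of the membrane arm, was 12.67, 12.81 and 12.22 in WT and 11.80, 12.12, 11.89 and 11.67 in mutants, a 1.62-fold fall (log2 difference -0.70, SE 0.16, adjusted p 0.00647). Ndufs4 was 11.44, 11.39 and 11.17 against 10.31, 10.98, 10.69 and 10.60, a 1.61-fold fall (SE of the log2 difference 0.16, adjusted p 0.00868). In both genes the groups were separate, but by little at the nearest arrays. Ndufc1, another accessory subunit, was 13.16, 13.28 and 13.08 against 12.35, 12.87, 12.62 and 12.54, a fall of 0.58 (SE 0.12, adjusted p 0.00353). Ndufs1 fell by 0.37 with overlapping arrays (SE 0.12, adjusted p 0.0483), while Ndufv1 had a difference of 0.00 (SE 0.09, adjusted p 0.997).

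Of the 8 assembly factors 3 were lower, and their median was -0.49. Ndufaf5 was 9.20, 9.33 and 9.29 in WT and 7.68, 8.98, 8.80 and 8.78 in mutants, so that mutant replicate 1 stood more than 1 below the others. Its fall was 0.71 (SE 0.23, adjusted p 0.0457), and Ndufaf3 and Ndufaf2, which also act in assembly, fell by 0.57 and 0.54. Ndufaf6 differed by -0.53 and was just short of the call (SE 0.18, adjusted p 0.0515).

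In complex II the subunits divided. Sdhb was 12.89, 12.93 and 12.92 in WT and 12.22, 12.69, 12.59 and 12.42 in mutants, a fall of 0.43 (SE 0.11, adjusted p 0.0131), and Sdhd fell by 0.31 (SE 0.10, adjusted p 0.045). Sdha, from the same enzyme, was 12.40, 12.19 and 12.33 in WT and 12.37, 12.56, 12.41 and 12.39 in mutants. Those arrays overlapped (difference 0.12, SE 0.09, adjusted p 0.419).

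Complex III had 2 of 8 members lower. Uqcrc2 was 12.82, 12.75 and 12.81 in WT and 12.23, 12.60, 12.35 and 12.12 in mutants, a 1.38-fold fall (SE of the log2 difference 0.10, adjusted p 0.00653). Uqcr11, a small subunit, fell by 0.41 (SE 0.12, adjusted p 0.0269). Uqcrc1 and Uqcrfs1 differed by -0.28 and -0.18 and were not called.

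Of complex IV 3 of 19 members were lower: Cox7a1, Ndufa4l2 and Cox6b1. Cox7a1 was 12.62, 12.75 and 12.33 in WT and 11.77, 12.24, 11.94 and 11.77 in mutants, with no overlap and a 1.55-fold fall (SE of the log2 difference 0.15, adjusted p 0.00952). Ndufa4l2, which replaces Ndufa4 under low oxygen, was 7.25, 7.24 and 7.04 against 6.69, 6.89, 6.71 and 6.84, a 1.32-fold fall (adjusted p 0.0114). The other muscle forms did not pass: Cox8b differed by -0.24, and Cox6a2 by 0.18 (SE 0.10, adjusted p 0.273), at 13.05, 13.24 and 13.14 in WT and 13.32, 13.36, 13.30 and 13.34 in mutants. All 4 mutants were above all WT arrays for Cox6a2. Cox4i1, Cox5a and Cox5b differed by -0.22, -0.24 and -0.21 and were not called either.

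Of complex V 3 of 17 members were lower, 2 in the stalk, Atp5j and Atp5h, and 1 in the membrane part, Atp5mpl. Atp5j was 12.84, 12.86 and 12.62 in WT and 12.29, 12.51, 12.48 and 12.36 in mutants, a fall of 0.36 (SE 0.10, adjusted p 0.027), and Atp5h fell by 0.32. The catalytic head was not called in any of its 5 members. Atp5b was 13.56, 13.48 and 13.52 in WT and 13.51, 13.54, 13.54 and 13.55 in mutants (difference 0.02, SE 0.08), and Atp5a1 differed by 0.01 (SE 0.10).

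The muscle count rests on single arrays and on the spread of the whole set. Without untreated WT replicate 1, 2 or 3 it was 12, 5 or 17, and without untreated mutant replicate 1, 2, 3 or 4 it was 12, 43, 17 or 17. With each array centred on its median it was 8 lower and 1 higher, the small subunit Cox7c, and it was 0 with the 18S signal as a covariate and 3 with the actin signal. The 18S signal was 13.11 to 13.28 in WT and 12.5 to 13.13 in mutants, and the actin 3′ minus 5′ signal 0.16 to 0.18 in WT and -0.06 to 0.14 in mutants, so the actin values of the genotypes did not overlap. Their part in the falls was not tested beyond these fits. Among the 28, the call on Ndufb2 was kept in 24 of 25 alternatives and that on Uqcrc2 in 23, while Sdhd lost it in 20 and Ndufs1 in 19.

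Beside these members, the other mitochondrial lists moved less evenly in muscle than in kidney. Over all genes 6.93% were called higher in this comparison. Of 16 TCA cycle enzymes 3 were lower and 2 higher (Suclg1 -0.46, Dlat -0.44, Idh2 0.75, Ogdh 0.58), and Cs had a difference of -0.06. Of 31 assembly factors of complexes II to V 10 were lower, led by Pet100 at -0.88, and 1 was higher, Cox18 at 0.73. Of 13 cytochrome c and coenzyme Q genes 6 were lower, Coq7 by 0.87 on the log2 scale. Among the regulators 6 were higher, with Ppargc1a at 0.54, and 2 lower, with Esrra at -0.37, while Tfam had -0.19 and was not called. Of 11 fibroblast markers 9 were lower (mean level 10.55 to 10.76 in WT, 8.26 to 9.37 in mutants), and of 12 slow-fibre markers 5 were higher (10.75 to 11.37 in WT, 11.2 to 12.1 in mutants). The part of these cell markers in the result was not tested.

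With the trap, 4 of the 90 members were called higher in mutant muscle and none lower. That share is near the 4.18% of all genes called higher, so the count is not a result about the members as a set. The median member difference was 0.13, and 0.05 with arrays centred on their medians. Ndufb2, of complex I, rose 1.52-fold, to 12.14, 12.50, 12.71 and 12.54 (log2 difference 0.60, SE 0.14, adjusted p 0.0229). Ndufaf6 rose 1.5-fold, from 9.07, 9.90, 9.72 and 9.54 to 9.95, 10.00, 10.51 and 10.11 (SE of the log2 difference 0.16, adjusted p 0.0433). Both had every treated array above every untreated one. Ndufaf2 rose 1.49-fold, from 7.20, 7.94, 7.71 and 8.02 to 8.26, 8.24, 8.45 and 8.22 (SE of the log2 difference 0.14, adjusted p 0.027), and Ndufc1 rose 1.30-fold, to 12.79, 12.99, 13.08 and 13.05 (adjusted p 0.0484). The Ndufc1 arrays overlapped, those of Ndufaf2 did not. Ndufaf5 (0.64, adjusted p 0.0862), Ndufs4 (0.43, adjusted p 0.102) and Cox7a1 (0.31, adjusted p 0.215) did not pass, and Sdha and Atp5a1 had differences of -0.16 and -0.12.

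This comparison uses the same untreated mutant arrays as the genotype comparison, so the values of each gene are not independent between them. The count of 4 was 0 without untreated mutant replicate 1, 14 without replicate 2 and 1 without replicate 3 or 4. It was 0 without treated mutant replicate 2, 3 or 4, and 2 without untreated WT replicate 1 or 3 or any of the 4 treated WT arrays. Beside it, 5 of 11 fibroblast markers rose (9.60 to 10.05 in treated mutants) and Ppargc1a fell by 0.66. The part of these markers in the 4 rises was not tested. The 18S signal of treated mutants was 13.05 to 13.4. With it as a covariate the 4 differences were 0.35 to 0.64 and none was called (adjusted p 0.258 to 0.462), and with the actin signal they were 0.33 to 0.59 and none was called (adjusted p 0.102 to 0.227).

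**Figure D4:**
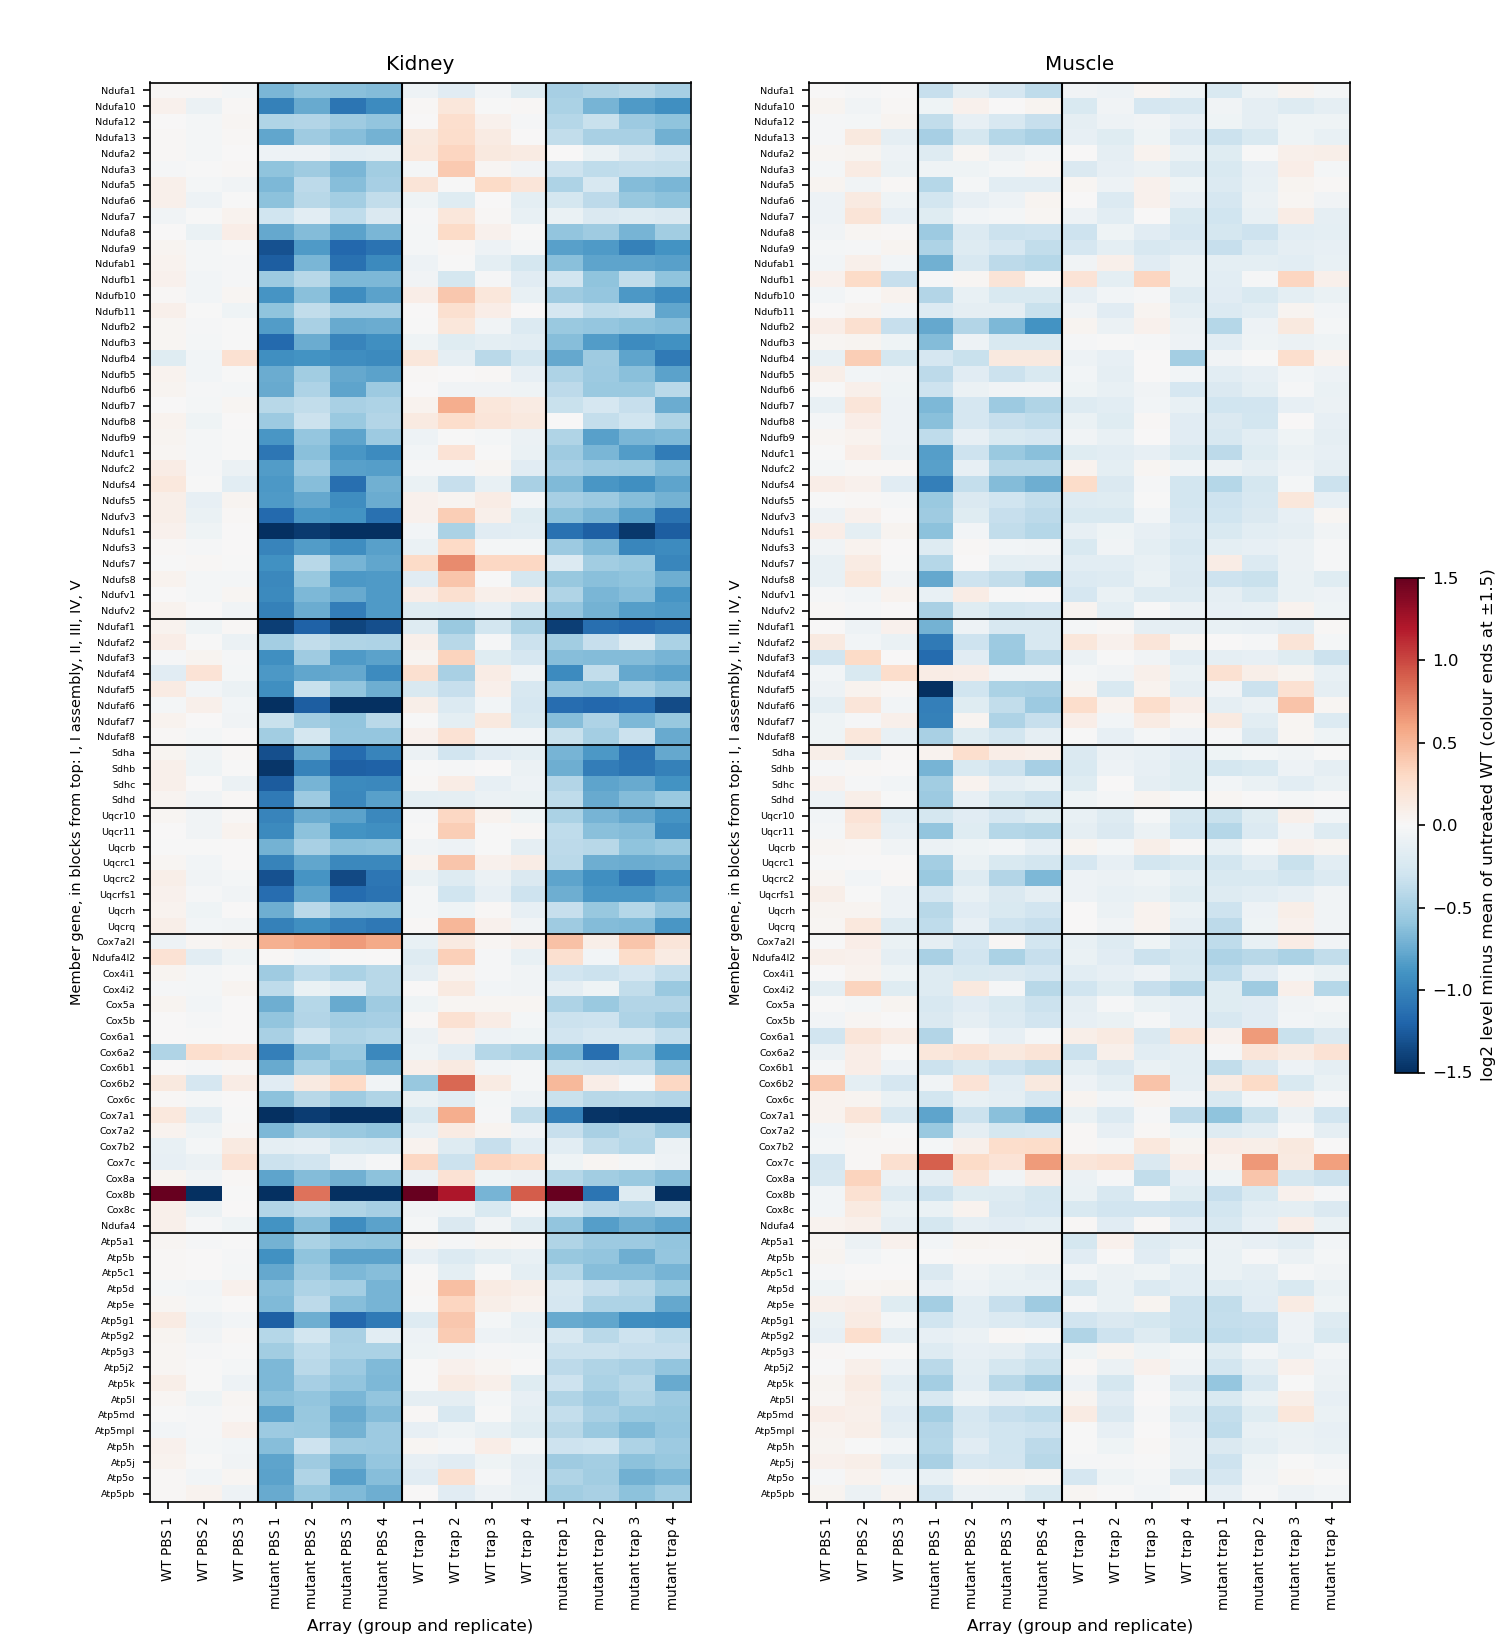
Log2 signal minus the untreated WT mean (colour, ends at ± 1.5) of the 90 members (rows, in blocks by complex) on the 15 arrays of each tissue (columns, by group). Kidney mutants are low through nearly all rows with and without the trap, with the median member 0.53 to 0.77 below WT without it and 0.45 to 0.66 below with it, and untreated mutant muscle is lowest on replicate 1, at -0.39.

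No member was called between mutant and WT muscle when both had the trap (limma, 1.66% of all genes, 2 members with an unadjusted p below 0.05, median -0.02), and none was called for the trap in WT muscle (limma, 0.0619% of all genes, 8 members with an unadjusted p below 0.05, median -0.10). The nearest in the first were Cox6a2 at 0.26 (adjusted p 0.238) and Ndufa4l2 at -0.22 (adjusted p 0.302), and in the second Cox8c at -0.28 (adjusted p 0.314) and Atp5g1 at -0.27 (adjusted p 0.317). The trap effect was not shown to differ between the genotypes (limma, no member called, 0.169% of all genes, 22 with an unadjusted p below 0.05). There Ndufc1 had 0.55 (adjusted p 0.156) and Ndufb2 0.62 (adjusted p 0.214), and Ndufc1 was called without untreated mutant replicate 2. Treated mutants against untreated WT had 1 called member, Ndufa4l2, lower by 0.43 on the log2 scale (adjusted p 0.045, with 0.827% of all genes lower). Its treated mutant arrays read 6.72, 6.76, 6.70 and 6.80, all below WT, and the call was kept in 5 of 25 alternatives.

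The genotype difference itself was more negative in kidney than in muscle for most members. In a fit of both tissues with the animal as a random block, the kidney difference was lower than the muscle one for 56 members and higher for 2, with a median of -0.43. Over all genes 17.5% were lower and 19.7% higher. The 56 include Cox7c and the dim Cox7b2, called in neither tissue, whose muscle differences were 0.51 and 0.15. Of the subunits the 56 covered 5 of the 6 core subunits of complex I, 4 of 4 of complex II, 7 of 8 of complex III, 11 of 17 of complex IV and 4 of 5 of the ATP synthase head. Other parts were covered less. Of the assembly factors only Ndufaf1, Ndufaf4 and Ndufaf6 were among them, and of the ATP synthase membrane part only Atp5l. Many accessory subunits of complex I, such as Ndufa2, Ndufa7 and Ndufb2, were not. Ndufs1 differed most, by -1.35 (SE 0.17, adjusted p 2.24e-07), followed by Cox7a1 at -1.33 (SE 0.29, adjusted p 0.000538). Members that were not called in muscle were among the 56: Sdha -1.06, Ndufv1 -0.81, Atp5b -0.79 and Atp5a1 -0.63.

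Several of the members that fell most in muscle were not among the 56. The test between tissues uses the same muscle arrays. Picking members by a large or an absent muscle fall therefore shifts it by itself. Ndufb2 had a difference between tissues of -0.01 (SE 0.18, adjusted p 0.972), Ndufs4 of -0.15, Ndufaf5 of 0.07 and Ndufaf2 of 0.09. The 2 that were higher were Cox7a2l (0.60, SE 0.14, adjusted p 0.00149), which rose in kidney, and Ndufa4l2 (0.39, SE 0.15, adjusted p 0.0429), which fell in muscle. With arrays centred on their medians neither was called and 77 members were lower. Counted by calls, 27 members were lower in both tissues, which is 32.9% of the kidney list and 96.4% of the muscle list. Of all 90 members 91.1% were lower in kidney, so a share near this among the 28 says nothing particular about them. Over all genes 2.56% were lower in both tissues. Ndufa4l2 was the 1 called in muscle and not in kidney, and 7 were called lower in neither. The trap effect in mutants was not shown to differ between the tissues (limma, no member called, 5.26% of all genes, 12 with an unadjusted p below 0.05), with Ndufa10 at 0.36 (adjusted p 0.0733) and Ndufaf2 at -0.52 (adjusted p 0.0822) the nearest.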

How the data were processed

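Per the labels' protocols, RNA of snap-frozen kidney and muscle was put on Affymetrix whole-genome mouse arrays, 1 per animal and tissue (30 arrays). The authors deposited 1 table of log2 intensities. The sources used here do not state its background correction or normalization, and its values were taken unchanged. Of 35088 probe sets 31563 carried 1 gene symbol, 825 several and 2700 none; the brightest of a gene's probe sets in a tissue was kept, giving 17782 genes and, from 162 probe sets, the 90 members. For 5 members the probe set differs between tissues (Ndufa7, Sdha, Uqcrc2, Cox7a2l, Atp5a1), and 19 of the muscle and 18 of the kidney probe sets carry a suffix (_s_ or _x_) that marks probes that can match other genes. Comparisons between tissues used 1 shared probe set per gene. Signals near the top of the range can compress differences.

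Each tissue was fitted in limma 3.58.1 (R 4.3.3) over its 4 groups and 15 arrays, and both tissues together with the animal as a random block. P-values were adjusted by Benjamini-Hochberg over all 17782 genes. The labels give separate animals. Replicates are numbered within a group in the order of the deposit. In simulated data with 200 changed genes of 17782, the untreated genotype comparison recovered 30% of log2 changes of 0.5 and 89% of changes of 1 in muscle, and 43% and 88% in kidney. Alternatives were other probe set rules, filters, scalings, variance models, covariates and each array left out.

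The members, the gene lists and the tests were chosen with earlier results of these data known. Named genes were, per complex, the 2 called members with the largest rise and fall in the untreated genotype, trap-in-mutant and tissue comparisons, a fixed set of key subunits and the 5 paralogue pairs, and, elsewhere, up to 3 called per direction or the 2 with the lowest p. Of other lists up to 2 called genes were named, with Ppargc1a, Esrra, Tfam and Cs. Other members, among them Cox7c, Cox7b2, Cox6b2, Uqcr10, Ndufa2, Ndufa10, Ndufaf2 and Ndufaf3, were named after their values were seen, as were the regulators Pprc1 and Nrf1. Promoter windows are from RefSeq (GRCm38.p6).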

Additional observations from a re-analysis of the deposited data

Results flagged for a closer look

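In 19 of 288 sets of 4 arrays 1 array stood far from the other 3 by Dixon's criterion, where chance gives about 5.0% of groups. In treated WT kidney replicate 2 was the outlying array for Atp5a1 (13.25), Cox6a1 (14.22), Cox8a (13.05), Ndufs7 (12.06), Ndufv1 (12.01), Uqcr11 (12.49) and Uqcrc1 (12.3); replicate 1 was it for Cox5a (13.02) and replicate 4 for the complex V median (-0.11 against untreated WT). In untreated mutant kidney replicate 2 stood apart for Uqcr11 (11.51), Uqcrc1 (11.1) and Uqcrfs1 (11.87), and replicate 3 for Atp5mpl (11.34). Treated mutant kidney had Atp5b on replicate 3 (12.99) and Uqcrc1 on replicate 1 (11.48). In muscle these were Ndufaf5 on untreated mutant replicate 1 (7.68), Atp5mpl on treated mutant replicate 1 (12.05), Ndufaf2 on treated mutant replicate 3 (8.45) and Atp5j on treated WT replicate 4 (12.68).

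The untreated genotype difference differed between kidney and muscle, by a limma test of the difference itself, for these named members, given as kidney minus muscle on the log2 scale. Complex I subunits and factors were Ndufs1 at -1.35, Ndufaf6 at -1.09 and Ndufv1 at -0.81. Complex II had Sdha at -1.06 and Sdhb at -0.79, and complex III Uqcrfs1 at -0.87 and Uqcrc1 at -0.65. Of complex IV, Cox7a1 had -1.33, Cox6a2 -0.98, Cox8a -0.72, Ndufa4 -0.64, Cox5a -0.37 and Cox5b -0.3, and the ATP synthase head had Atp5b at -0.79 and Atp5a1 at -0.63. Cox7a2l at 0.6 and Ndufa4l2 at 0.39 differed the other way, though neither was called with arrays centred on their medians.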

How the results depend on the processing

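In kidney the untreated genotype count of 83 stayed between 80 and 86 over the 25 alternatives, and that under the trap between 76 and 85; the count for treated mutants against untreated WT (82) was 42 with the 18S covariate and 77 to 86 otherwise. The muscle genotype count of 28 was 9 under median centring, 43 with a trended and robust prior variance, 4 with only the groups compared in the fit, 0 with the 18S and 3 with the actin covariate, and 5 to 43 with 1 array left out. Its median difference ranged from -0.29 to -0.13. The count of 4 for the trap in mutant muscle was 2 under median centring, 8 with array weights, 0 with only the groups compared and with either covariate, and 0 to 14 with 1 array left out. The count of 1 for treated mutant against untreated WT muscle was 0 under quantile scaling, median centring, the trended prior, only the groups compared, the replicate block and either covariate, and 0 to 1 with 1 array left out. Counts of 0 became 1 with array weights for the muscle interaction (0 to 1 with 1 array left out), 1 with array weights for the trap in WT kidney (0 to 1), 2 with array weights for the kidney interaction (0 to 3), and 1 under quantile scaling, 1 among genes above the median level and 2 with array weights for the trap in mutant kidney (0 to 4). For the trap effect between tissues 0 became 1 under median centring and 3 among genes above the median level (0 to 2 with 1 array left out). Between tissues the Atp5g3 difference of 0.17 reversed to -0.030 under median centring; the count of 65 ranged from 50 to 75 and the genotype difference between tissues (58) from 44 to 77. The cause of these moves was not tested.

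Replicate numbers follow the order of the deposit and name samples only: same-numbered arrays of different groups correlated above 0.1 in 4 of 21 pairs in kidney and 6 of 21 in muscle. With the replicate number as a block the untreated genotype counts were 83 in kidney and 19 in muscle, and that for the trap in mutant muscle was 3. In the simulated data, with 200 changed genes, 30% of muscle changes of 0.5 were recovered. The real muscle comparison called 1608 genes lower and 1232 higher, so its adjusted cutoff differs and its recovery was not measured.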
